A study of Mus musculus with 4 samples.

Results

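A window of 170 kb on mouse chromosome 16 (mm9, from 8.63 to 8.80 Mb) held 5 of the 945 KLF1 peaks in the authors' list. The members were all listed peaks whose start lay in the window. The window was chosen for its peaks. Its high and low sites were told apart by height, the authors' ChIP read count at the peak. Heights and ratios of ChIP to input are therefore descriptions. The members comprised 1 high site, 1 middle site and a group of 3 low sites, here called low sites 1 to 3 in order of position. The window is named for Usp7 and Carhsp1, but that placement was not checked against the data: the gene table used here is of GRCm38.p6, not mm9. No site is therefore assigned to a gene, exon, intron or promoter.

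KLF1 (EKLF) is an erythroid activator with zinc fingers that binds CACCC-type sequences in promoters and enhancers, those of the adult beta-globin gene among them. KLF3 is a related factor that recruits corepressors. In chromatin immunoprecipitation with sequencing (ChIP-seq), an antibody pulls down a protein with the DNA it occupies, and reads of that DNA pile up at the occupied sites.

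The chromatin of each sample came from 4 pooled fetal livers at E14.5, all Klf3 -/- on a Balb/c background and labelled female and erythroid. At that age the liver is the main organ of red cell formation. The ChIP used a rabbit polyclonal antibody to KLF1, and unprecipitated input DNA from livers of the same description was the control, so both groups lacked Klf3. Each group held replicates 1 and 2, sequenced on SOLiD Systems 2.0 and 3.0 in that order, so replicate and system cannot be told apart. Both were deposited as 1 combined library per group, with 17438921 ChIP and 47356494 input reads. No value has a replicate error, and intervals cover counting error only.

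In the RefSeq table of GRCm38.p6, the genes ran in the order Tmem186, Pmm2, Carhsp1, Gm5767, Usp7 and Gm25805. Carhsp1 encodes a cold-shock-domain protein that binds RNA. Usp7 encodes a deubiquitinase, also known as Hausp, whose substrates include p53 and Mdm2. Pmm2 encodes a phosphomannomutase of protein glycosylation.

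The promoters of the genes that name the window are shown because KLF1-type factors recognise a short sequence that can be searched for in them. The sequences are RefSeq's for GRCm38.p6, the minus strand read 5′ to 3′, and cover the 250 bases before each gene's start. Capitals mark matches to CCNCNCCC or its reverse complement GGGNGNGG, the KLF1-type core.
Carhsp1: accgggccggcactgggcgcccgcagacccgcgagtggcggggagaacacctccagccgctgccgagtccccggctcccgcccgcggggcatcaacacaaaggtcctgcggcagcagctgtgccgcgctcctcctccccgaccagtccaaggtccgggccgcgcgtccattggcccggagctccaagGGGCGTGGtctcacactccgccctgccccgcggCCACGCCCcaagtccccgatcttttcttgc
Usp7: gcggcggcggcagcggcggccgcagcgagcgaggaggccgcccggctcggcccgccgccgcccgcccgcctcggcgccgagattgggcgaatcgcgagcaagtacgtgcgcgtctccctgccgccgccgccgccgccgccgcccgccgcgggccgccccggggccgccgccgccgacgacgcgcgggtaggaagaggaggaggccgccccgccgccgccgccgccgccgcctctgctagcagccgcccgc

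Carhsp1 had 2 matches, 1 on each strand, and Usp7 had 0. A match occurred in 45.9% of the 32851 promoters in the table, and 27.3% held as many matches as Carhsp1 or more. Among the 3037 promoters with a G and C content of 70% or more, 88.7% held a match. The share of these with as many matches as Carhsp1 was not counted. These genes stood at a G and C content of 73.2% for Carhsp1 and 85.2% for Usp7. Neither promoter held AGATAA, the GATA factor core, on either strand, which 9.99% of all promoters and 0.79% of those with a G and C content of 70% or more did. A match is a description of letters, not a binding site. Whether any listed peak lies in either promoter was not examined.

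The high site was the highest KLF1 peak of the 32 on chromosome 16 and 1 of the 6 highest of the list. It lay at chr16:8655920-8655920, an interval 1 position wide, and its height was 37. Height is the authors' number of ChIP reads over the listed start, reproduced when each read was extended from its 5′ end over the next 100 positions. The nearest listed peak on one side was 2151 kb away, and on the other was the middle site at 31.1 kb. At the start, 37 ChIP reads and 3 input reads overlapped. Scaled to library size, ChIP exceeded input 33.5-fold (95% exact Clopper-Pearson interval 10.6 to 169.8).

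The middle site, at chr16:8687048-8687068, had a height of 18. It was covered by 18 ChIP and 5 input reads, a ratio of 9.78 (3.50 to 33.7). It belonged neither to the high site nor to the low group: 125 listed peaks were higher, and 65.3 kb separated it from low site 1.

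The low group spanned 12.4 kb, beginning 96.5 kb from the high site. Low site 1, at chr16:8752383-8752404, had a height of 9, the lowest height in the list, and 4 input reads. Low site 2, at chr16:8761352-8761359, had a height of 13 and 5 input reads. Low site 3, at chr16:8764752-8764778, had a height of 9 and 3 input reads. The 3 sites were thus covered by 9, 13 and 9 ChIP reads, each fewer than the 18 at the middle site, over similar input.

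The scaled ratios at the starts of the low sites were 6.11 (1.71 to 27.2), 7.06 (2.36 to 25.3) and 8.15 (2.03 to 46.8) in that order. Pooled, 31 ChIP and 12 input reads gave 7.02 (3.50 to 15). The interval of the pooled ratio overlapped that of the high site, which rested on 3 input reads. The high and low sites were chosen by their ChIP reads at the start, so their separation in those reads was set by that choice. The input reads at the 5 starts ranged from 3 to 5. With 1 read added to each count, all 5 members reached 5-fold at the start, as did 98.2% of the list. The list was built from these reads, so nothing is read from this count.

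**Figure D1:**
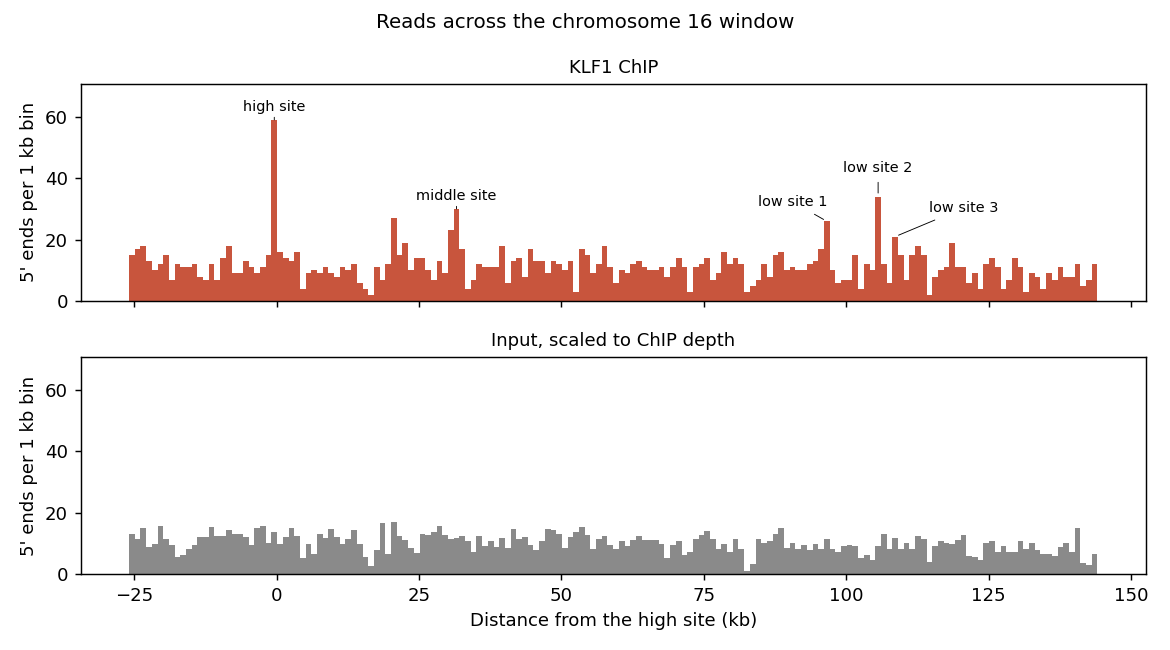
Read 5′ ends in 1 kb bins across the window, against distance from the high site in kb, for KLF1 ChIP (top) and input scaled to ChIP depth (bottom). The bin of the high site held 59 ChIP reads and that of low site 2 held 34, while bins without a listed peak held at most 27.

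Across the window the bins that held the high site, low site 2 and the middle site held the most ChIP reads, with 59, 34 and 30 among 170 bins. The middle site started close to the left edge of its bin, and the bin before it held 23. Within 100 positions of the start the middle site had 21 ChIP reads and low site 2 had 19, so the order of these bins depended on their edges. Those of low sites 1 and 3 held 26 and 21. The 165 bins without a listed start held 2 to 27 ChIP reads with a median of 11, and 3 to 46 input reads with a median of 28. In ChIP reads alone the bins of low sites 1 and 3 lay within the range of bins that held no listed start. After subtracting input scaled to ChIP depth, the bin of low site 1 had an excess of 14.6 reads, above the 11.6 of the highest bin without a listed start. That highest bin was the one before the middle site and held reads from the left side of that peak. The next, from 8676000, stood at 10.1 and held an unlisted stretch of height 8, described below. The bin of low site 3, at 9.22, was above neither.

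Away from the sites, the ratio of ChIP to input stayed near 1. More than 1 kb from any listed peak, 1704 ChIP and 4421 input reads gave a ratio of 1.05 (0.989 to 1.11), close to the 1.02 of the whole chromosome. The stretch between the middle site and low site 1 was at 1.07 (0.976 to 1.17). The stretches between the low sites were at 1.10 (0.823 to 1.45), from 73 ChIP and 181 input reads. No excess of ChIP reads joining the low sites to each other was detectable at this depth.

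The pileups differed in shape. The width over which the ChIP height stayed at 50% or more of its value at the start was 120 positions at the high site and 111 at the middle site. It was 235 positions at low site 2 and 111 at low site 3. At low site 1 it equalled the length of 1 extended read, the least a stack of reads can have. Low site 2 was the broadest of the members, and among the 59 other listed peaks of height 13, with a median of 126, only 3 were wider. The high site was narrower than 13 of the 14 other peaks of heights 31 to 37, whose median was 157.5.

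**Figure D2:**
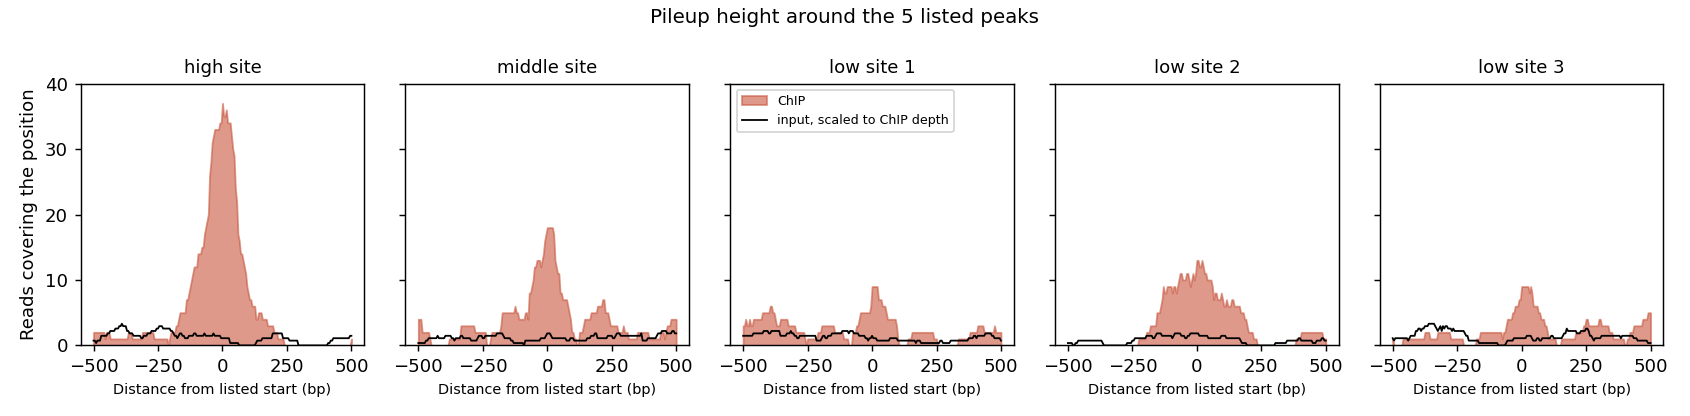
Reads covering each position within 500 bp of the listed start, for ChIP (filled) and for input scaled to ChIP depth (line), at the 5 members. The high site reached 37 in a narrow summit, and low site 2 was lower, at 13, and 235 positions wide at 50% of that height.

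Reads that began more than 100 and up to 300 positions from the listed start, called flank reads here, do not cover it at the read extension used. They come from the same 2 libraries that made the list, so they are given as a description. The high site had 12 ChIP and 16 input flank reads, a ratio of 2.04 (0.879 to 4.59). The middle site had 12 and 12, a ratio of 2.72 (1.12 to 6.61). The member with the highest flank ratio was neither of these but low site 2.

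Low site 2 had 12 ChIP flank reads, as many as the high site, over 5 input reads, a ratio of 6.52 (2.14 to 23.6). Low site 1 had 7 ChIP and 13 input flank reads, at 1.46 (0.494 to 3.94). Low site 3 had 6 and 14, at 1.16 (0.367 to 3.22). The intervals of low sites 1 and 3 and of the high site included 1, and those of low site 2 and the middle site did not. The intervals of all 5 overlapped.

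Pooled, the low group had 25 ChIP and 32 input flank reads, a ratio of 2.12 (1.21 to 3.70), similar to that of the high site. This value rested on low site 2: without it the other low sites gave 1.31 (0.619 to 2.62). Without low site 1 the ratio was 2.57 and without low site 3 it was 2.87.

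**Figure D3:**
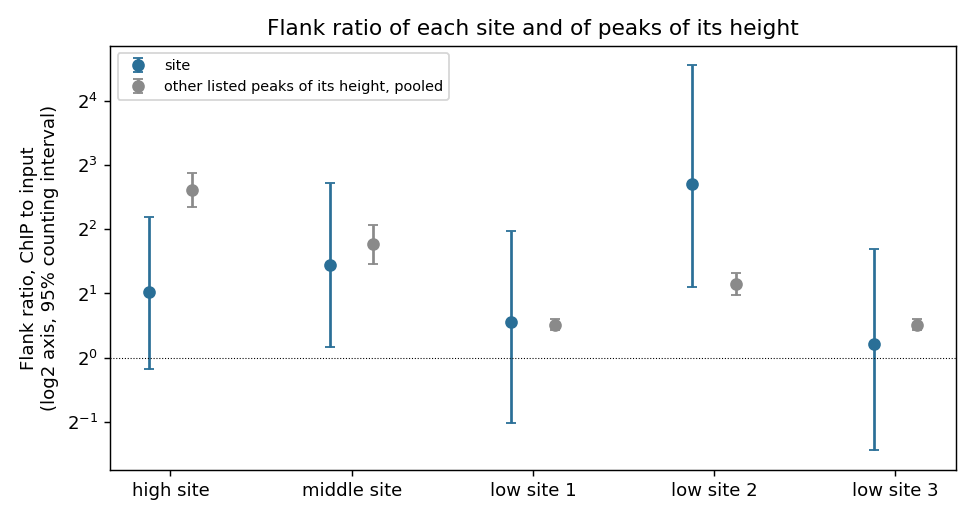
Flank ratio of ChIP to input on a log2 axis for each member (blue) and for other listed peaks of its height outside the window, pooled (grey), with 95% exact counting intervals. The high site, at 2.04, lay under the 6.14 of peaks of heights 31 to 37, and low site 2, at 6.52, lay over the 2.22 of peaks of height 13.

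Set beside listed peaks of like height, the high site was low in its flanks. The 14 other peaks of heights 31 to 37 gave a pooled flank ratio of 6.14 (5.12 to 7.38), above the upper bound for the high site. With 1 read added, the high site was at 2.08 and those 14 peaks ranged from 2.72 to 12.2, so all of them were higher. None of the 20 highest peaks had a lower value, although 15 of the 105 peaks of height 20 or more did. Just below the range, at a height of 30, a peak on chromosome 5 was at 1.02 and the others were at 3.21 and 3.85. That the high site was lowest thus depended on where the range was cut. The high site's 12 ChIP flank reads compare with a median of 26.5 in the 14 peaks, and its 16 input flank reads with a median of 11.

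At the start itself, with 1 read added, the ratio was 25.8 at the high site and had a median of 21.6 in those peaks. The high site had the greatest height of that range, so this order follows in part from how the range was set. Beyond 200 positions little ChIP signal remained beside the high site: from there to 300 positions there were 3 ChIP and 7 input reads, and from there to 500 there were 2 and 11. Low site 2 had few ChIP reads at these distances too, with 2 ChIP and 0 input reads and then 1 and 7.

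Low site 2 stood at the other end. With 1 read added its flank ratio was 5.88, and of the 59 other peaks of height 13 only 1 was higher (range 0.799 to 6.11, median 2.33). Its 5 input flank reads were fewer than in 51 of those 59 peaks, whose median was 10, and its 12 ChIP flank reads were more than in 45. Low sites 1 and 3, at 1.55 and 1.27, lay near the median of 1.48 for peaks of height 9. The middle site, at 2.72, was below 12 of the 17 other peaks of height 18. At 2-fold or more in the flanks, 3 of the 5 members passed, against 53.5% of all listed peaks.

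**Figure D4:**
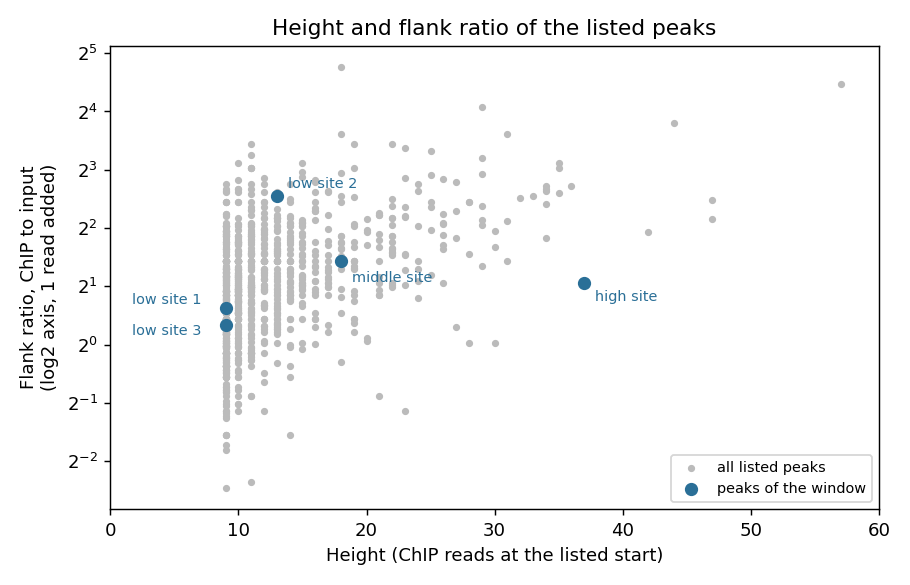
Height against flank ratio with 1 read added (log2 axis) for all 945 listed peaks (grey) and the 5 members (blue). The high site, at a height of 37, had a flank ratio of 2.08 and low site 2, at a height of 13, had 5.88.

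Strand gave a further view, since fragments around a bound site are read forward from its left and in reverse from its right. At the high site, 20 forward and 7 reverse ChIP reads began in the 100 positions to its left, and 4 forward and 16 reverse in the 100 to its right. Reads were counted as covering the start by strand, so this near pattern is partly built in. Flank reads do not cover the start at the read extension used, though fragments of up to 130 bp could reach it. In the flanks, the high site had 5 forward and 2 reverse reads on the left and 1 and 4 on the right.

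The flanks of low site 2 divided likewise, with 6 forward and 1 reverse read on the left and 0 and 5 on the right. The middle site had 3 and 2 on the left and 2 and 5 on the right. Low site 1 had 2 and 3 on the left and 2 and 0 on the right, and low site 3 had 0 and 1 and then 3 and 2. At low sites 1 and 3 the counts did not lean the way they did at low site 2, though they were too few to compare. In the input, measured the same way, the high site had 5 forward and 6 reverse flank reads on the left and 2 and 3 on the right. Low site 2 had 1 and 3 input reads on the left and 0 and 1 on the right. At the middle site the input counts equalled the ChIP counts, with 3 and 2 on the left and 2 and 5 on the right. The middle site's flanks thus showed no strand split beyond that of the input. Low site 1 had 6 and 3 input reads on the left and 2 and 2 on the right. Low site 3 had 1 and 4, then 6 and 3.

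Besides the members, 10 stretches of the window reached a ChIP height of 6 or more without a listed start. The highest, on chromosome 16 at 8767696, had a height of 9, as high as low sites 1 and 3, and lay 2.94 kb beyond low site 3. It was covered by 5 input reads, and its ratio was 4.89 (1.47 to 18.6). Low site 1, which was listed, had the same height and 4 input reads. Of the 284 listed peaks of height 9, 9 had 5 or 6 input reads. With 1 read added, the ratio of the unlisted stretch at 8767696 was 4.53. Why it was not listed was not tested.

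Stretches of height 8 lay at 8676420, with 2 input reads, and at 8751812, with 3 input reads and 571 positions from low site 1. The other unlisted stretches had heights of 6 or 7. With 1 read added, 6 of the 10 reached 5-fold, all with heights under 9. The input library, which is 2.72 times deeper, reached a height of up to 13 in the window. That height is not scaled to ChIP depth, so it cannot be set directly against the ChIP heights.

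The low group was 1 of 7 groups of 3 or more listed peaks joined within 10 kb. Their highest members ranged from 11 to 35. The low group's 13 was shared by 2 other groups, exceeded in 3 and above 1. Its span of 12.4 kb lay within their range of 6.64 to 21.0 kb, and its pooled flank ratio of 2.12 within 1.89 to 4.63. The whole set of 5 members, over 108.8 kb, was 1 of only 2 runs of 5 consecutive listed peaks that fitted such a span. Since the window was chosen for its peaks, that count is a description.

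The neighbouring listed peak beyond the window, at 8829934, had a height of 10 and lay 65.2 kb from low site 3. That gap was similar to the 65.3 kb between the middle site and low site 1.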

How the data were processed

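The deposited read files hold, for every aligned read, its strand, chromosome and position on mm9, the build named in the submitters' processing notes. Per the labels, data of both sequencing systems were combined and inserts of 80 to 130 bp were selected. The aligner and peak caller are not given in the sources used here. The fourth column of the authors' peak list is a signal, the ChIP pileup height, and equalled a recount for 945 of 945 peaks. In the window no reads of a library shared position and strand (0 in each).

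Ratios were scaled to all aligned reads, and counting intervals are 95% exact Clopper-Pearson. No test was run, because each group is 1 combined library and the members were chosen by the same contrast. The members, lists and comparisons were chosen with earlier results of these data known. All listed peaks in the window were named. Alternatives changed the read extension, flank, scaling, margin, reads added, height and joining distance. Counting was tested on simulated data. Coordinates are printed as deposited, without knowledge of whether counting began at 0 or 1. Counts used NumPy 2.4.6 and pandas 2.3.3 under Python 3.11.15, intervals SciPy 1.17.1, and plots matplotlib 3.10.9.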

Additional observations from a re-analysis of the deposited data

How the results depend on the processing

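Of 32 alternatives over 7 results, 27 stayed within the counting interval of the value or within 1.5 times a count, and 5 moved; 8 were chosen after seeing the data. The 10 unlisted stretches became 6 at a height of 7 or more and 23 with reads extended to 130 positions. The 7 groups of 3 or more listed peaks became 2 when joined within 5 kb, where low sites 2 and 3 form a pair, 11 within 20 kb, and 2 among peaks of height 11 or more. With flanks reaching out to 500 positions the ratio was 1.41 at the high site and 1.55 in the low group. The ratio at the start ranged from 21.7 to 33.5 at the high site and from 4.94 to 7.06 in the low group. No paired analysis was possible because each group is 1 combined library and its replicates cannot be separated. Leaving out a replicate was not possible for the same reason. With 3 to 5 input reads at each start, 1 read moves a ratio widely.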
